A study of Mus musculus with 6 samples.

Results

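Intermediate filament genes were examined in WT and KO mouse embryonic fibroblasts (MEFs): the simple keratins Krt7, Krt8, Krt18 and Krt19, the fibroblast filament gene Vim, its partners Nes and Synm, and the lamin genes Lmna, Lmnb1 and Lmnb2. These 10 genes were taken by symbol from the 55565 genes of the deposited tables. All 10 had reads in at least 1 library and so were among the 26898 genes tested. The set was chosen by the measured counts of Krt18, which were higher in KO MEFs. The comparison of KO with WT for the 10 genes is therefore given as levels, fold changes and intervals. Which of them passed the threshold used for all genes is stated as a description, and is no independent evidence that such genes differ.

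The WT group held 3 libraries (WT1, WT2 and WT3) of wildtype MEFs, and the KO group 3 libraries (KO1, KO2 and KO3) of MEFs with an Mcm8 knockout, from a mouse line in which CRISPR-Cas9 had removed an exon. The starting tissue of both was the trunk (no head, tail, limbs, heart or liver) of E13.5 embryos, bred from Mcm8 heterozygotes of mixed C57BL/6J and ICR background. A lentivirus with the SV40gp6 gene served to immortalize both groups, which were selected with puromycin, so the WT MEFs are not primary cells either. The methods call the 3 samples of a genotype biological repeats, without saying whether they came from different embryos or dishes. The spread between these samples may therefore be technical. The edgeR p-values rest on that spread as a trend over all genes, not on each gene's own spread.

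Intermediate filaments are ropes of coiled-coil proteins. Keratins assemble only as pairs of a type I protein (here Krt18 and Krt19) with a type II protein (here Krt7 and Krt8), and these simple keratins mark single-layered epithelia and mesothelium. Vimentin is the filament protein of fibroblasts and other mesenchymal cells, nestin and synemin are large proteins that join vimentin filaments, and nestin is best known from neural and muscle progenitors. Lamins line the inner nuclear membrane; Lmna gives lamins A and C by alternative splicing, and Lmnb1 and Lmnb2 give the B-type lamins.

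The libraries held from 12722979 to 21022755 counts. Mcm8 itself lay at 13.8, 16.6 and 12.8 CPM (TMM-scaled counts over library size) in WT1, WT2 and WT3 and at 4.20, 4.45 and 4.12 CPM in KO1, KO2 and KO3 (log2 fold change -1.75, adjusted p = 4.45e-26, edgeR), a mean of 29.6% of WT. The fibroblast collagen genes Col1a1 and Col1a2, at means of 8634 and 5521 CPM in WT and 9940 and 5133 CPM in KO, were abundant in both genotypes. Xist lay between 940.3 and 1359 CPM in WT and between 474.3 and 494.3 CPM in KO, and 4 Y-linked genes summed to between 24.3 and 25.9 CPM in WT and between 107.9 and 125.6 CPM in KO, so sex-linked transcripts moved with genotype as well; their part in the results was not tested. WT1 stood apart by gene length. Among genes with a mean of at least 1 CPM, its median log2(CPM + 1) lay 0.21 above the other WT libraries in the shortest of 10 equal length classes of genes and 0.21 below them in the longest. No KO library departed from the others of its genotype by more than 0.02 in any class. Values that rest on WT1 are therefore given with and without it.

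**Figure D1:**
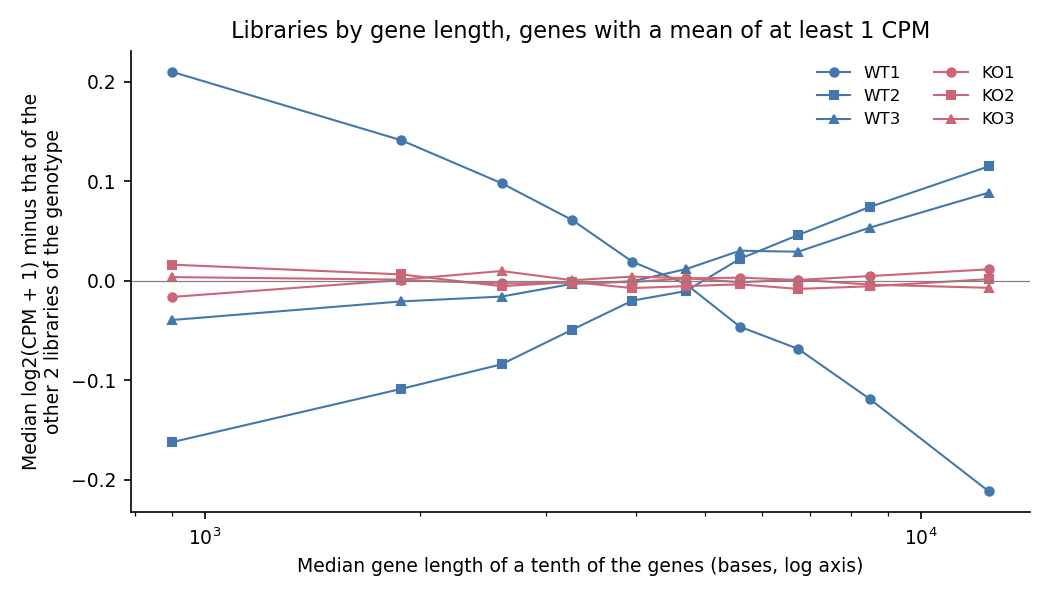
Median log2(CPM + 1) of each library minus the mean of the other 2 libraries of its genotype (y axis), in 10 classes of the genes ordered by length (x axis, median length in bases, log axis). WT1 falls from 0.21 in the shortest to -0.21 in the longest class, while the 3 KO lines stay near 0.

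Levels of different genes were compared per length, from the authors' FPKM. Vim led by far, with 932.3, 851.5 and 841.5 FPKM in WT1, WT2 and WT3 and 758.9, 752.1 and 786.0 FPKM in KO1, KO2 and KO3, and held place 17 of all genes by mean FPKM in WT and place 15 in KO. Lmna came next (mean 126.0 ± 4.81 FPKM in WT and 121.5 ± 4.70 in KO, SD, n = 3 each), followed by Lmnb1 (75.8 ± 4.38 and 81.5 ± 0.912), Nes (22.5 ± 0.928 and 34.3 ± 1.68) and Lmnb2 (16.9 ± 0.748 and 20.1 ± 0.433). These 5 genes kept this order in each of the 6 libraries, with no overlap between neighbours within a genotype. The keratins and Synm lay below 4 FPKM in every library. In WT the order went on with Krt19, Krt18, Synm, Krt7 and Krt8, and the Krt18 and Synm values overlapped. In KO it went on with Krt19, Krt18, Synm, Krt8 and Krt7, and here the Krt19 and Krt18 values overlapped. Krt18 thus moved from place 14260 of all genes by mean FPKM in WT to place 9131 in KO, and Krt8 from place 23388 to place 14517.

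**Figure D2:**
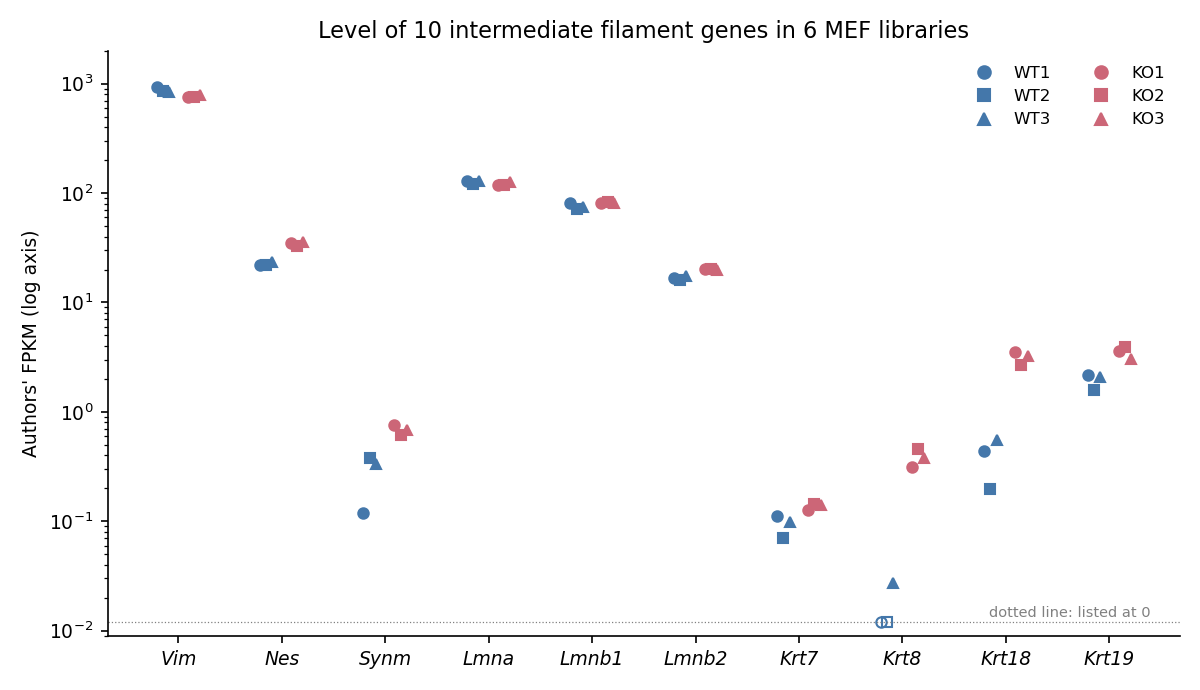
Authors' FPKM (y axis, log axis) of the 10 genes (x axis) in each of the 3 WT (blue) and 3 KO (red) libraries, a point per library, with open points on the dotted line where a gene was listed at 0. Vim, Lmna and Lmnb1 lie far above the keratins in both genotypes, and the points of Krt18 and Krt8 part between the genotypes.

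Krt18 (ENSMUSG00000023043, chromosome 15, from 101936615 to 101940462, plus strand), the type I keratin that chose the set, had counts of 8, 4 and 15 in the WT libraries against 109, 64 and 75 in the KO libraries. In CPM this was 0.627, 0.285 and 0.805 CPM in the WT libraries and 5.15, 3.85 and 4.68 CPM in the KO libraries. The lowest KO value was well above the highest WT value. The KO mean was 7.97 times the WT mean (0.572 ± 0.264 and 4.56 ± 0.658 CPM, SD, n = 3 each), and the fitted log2 fold change was 2.94 with a standard error of 0.35 (95% interval 2.25 to 3.63). Without WT1 it was 2.98. In bulk libraries a larger share of cells with a transcript and more transcript per cell cannot be told apart.

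Krt8 (ENSMUSG00000049382, chromosome 15, from 101905133 to 101912917, minus strand), the type II partner of Krt18, was counted 0, 0 and 1 times in the WT and 13, 15 and 12 times in the KO libraries. Summed over the libraries that is 1 count against 40, a ratio of 33.8 with a 95% counting interval from 5.72 to 1366 (exact binomial, counting error only). The KO libraries were all above the WT libraries, at 0.614, 0.902 and 0.749 CPM, but their level stayed below 1 CPM and the size of the ratio rests on a lone WT read. A pseudogene, Krt8-ps on chromosome 7, had 12, 0 and 3 counts in the KO libraries and 0 in each WT library, and reads may be shared between the copies; with both summed the KO libraries held 25, 15 and 15 counts and the WT libraries 0, 0 and 1.

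Krt8 and Krt18 are neighbours. In the deposited coordinates 23.7 kb lie between the end of Krt8 and the start of Krt18, with no other listed gene wholly inside, while 576.9 kb and 43 listed genes lie between Krt7 and Krt8. The RefSeq promoter table (GRCm38.p6, a build other than that of the deposited coordinates) held 10 windows for 8 of the 10 genes. Lmna and Lmnb2 had windows at different starts. Below are the 250 bases before the start of the 3 keratin genes it holds, shown because Krt18 and Krt8 moved together, and of Vim, the dominant filament gene. Each is written 5′ to 3′ on the strand of the gene. Capitals mark CACCTG, an E-box that repressors of the Snail and Zeb families can bind. They also mark TATAAA, a core promoter element.
Krt18 (chr15:102027966-102028215, plus strand): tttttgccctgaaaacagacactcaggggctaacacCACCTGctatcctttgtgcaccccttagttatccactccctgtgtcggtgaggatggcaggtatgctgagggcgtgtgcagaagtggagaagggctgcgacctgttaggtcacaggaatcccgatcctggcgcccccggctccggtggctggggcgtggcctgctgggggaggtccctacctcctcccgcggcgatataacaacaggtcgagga
Krt8 (chr15:102004343-102004592, minus strand): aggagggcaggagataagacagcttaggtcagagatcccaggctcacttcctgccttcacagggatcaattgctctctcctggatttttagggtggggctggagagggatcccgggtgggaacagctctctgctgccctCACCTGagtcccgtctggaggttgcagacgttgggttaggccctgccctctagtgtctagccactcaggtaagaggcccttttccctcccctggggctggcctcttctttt
Krt7 (chr15:101412153-101412402, plus strand): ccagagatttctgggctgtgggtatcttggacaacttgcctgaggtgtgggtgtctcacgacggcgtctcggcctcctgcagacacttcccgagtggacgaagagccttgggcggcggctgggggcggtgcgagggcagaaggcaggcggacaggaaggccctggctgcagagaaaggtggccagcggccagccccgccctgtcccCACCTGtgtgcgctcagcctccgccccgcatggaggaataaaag
Vim (chr2:13574061-13574310, plus strand): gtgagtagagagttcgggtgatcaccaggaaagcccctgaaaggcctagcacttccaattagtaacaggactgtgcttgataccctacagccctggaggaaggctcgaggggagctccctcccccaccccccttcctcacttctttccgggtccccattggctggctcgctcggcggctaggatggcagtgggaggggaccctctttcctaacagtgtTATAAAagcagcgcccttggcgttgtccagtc
The motifs were picked with these windows in view and searched on both strands. CACCTG stood in the windows of Krt18, from 214 to 209 bases before the start, of Krt8, starting 111 bases before it, of Krt7, from 44 to 39, and of Lmnb2, and in 17.2% of all 32851 windows of this length. TATAAA stood in the window of Vim, from 32 to 27 bases before the start, and in 12.4% of all windows. GGGCGG was found before Krt7, Nes, Lmna and Lmnb2 (32.7% of all windows), CCAAT before Vim, Lmna and Synm (33.8%), and the AP-1 motif TGANTCA before none of the 8 genes (6.75%). The CACCTG and GGGCGG of Lmnb2 lay in different windows, as did the CCAAT and GGGCGG of Lmna, while the shares are per window. These are letters in a sequence, and the tables hold no measure of binding there.

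Krt19 (ENSMUSG00000020911, chromosome 11, from 100031636 to 100039491), a type I keratin that can stand in for Krt18 in simple epithelia, lay at 3.997, 2.92 and 3.92 CPM in WT1, WT2 and WT3 and at 6.75, 7.21 and 5.62 CPM in KO1, KO2 and KO3. All KO values were above all WT values, with a fitted log2 fold change of 0.85 and a standard error of 0.20. Krt7 (ENSMUSG00000023039, chromosome 15, from 101308924 to 101328194), a type II keratin of glandular and mesothelial cells, had 10, 7 and 13 counts in the WT and 19, 17 and 16 counts in the KO libraries. Its values were 0.784, 0.499 and 0.698 CPM in WT and 0.897, 1.02 and 0.999 CPM in KO, which did not overlap, but the interval of its log2 fold change of 0.55 ran from -0.40 to 1.505, so a difference was not detectable at this depth.

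The 2 keratin types were out of balance in both genotypes. Per length, type I (Krt18 and Krt19) summed to between 1.77 and 2.65 FPKM in WT and between 6.26 and 7.17 FPKM in KO, and type II (Krt7 and Krt8) to between 0.0707 and 0.125 FPKM in WT and between 0.438 and 0.604 FPKM in KO. Type I thus exceeded type II 23.2 ± 1.95 times in WT and 13.1 ± 2.93 times in KO libraries (SD, n = 3 each). Krt18 made up 15.6 ± 4.65% of the 4 keratins in WT and 44.0 ± 5.77% in KO. Vim still exceeded the sum of the 4 keratins 370.4 ± 82.3 times in WT and 106.9 ± 8.24 times in KO. The keratin RNA was therefore a small fraction of the filament RNA in every library.

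**Figure D3:**
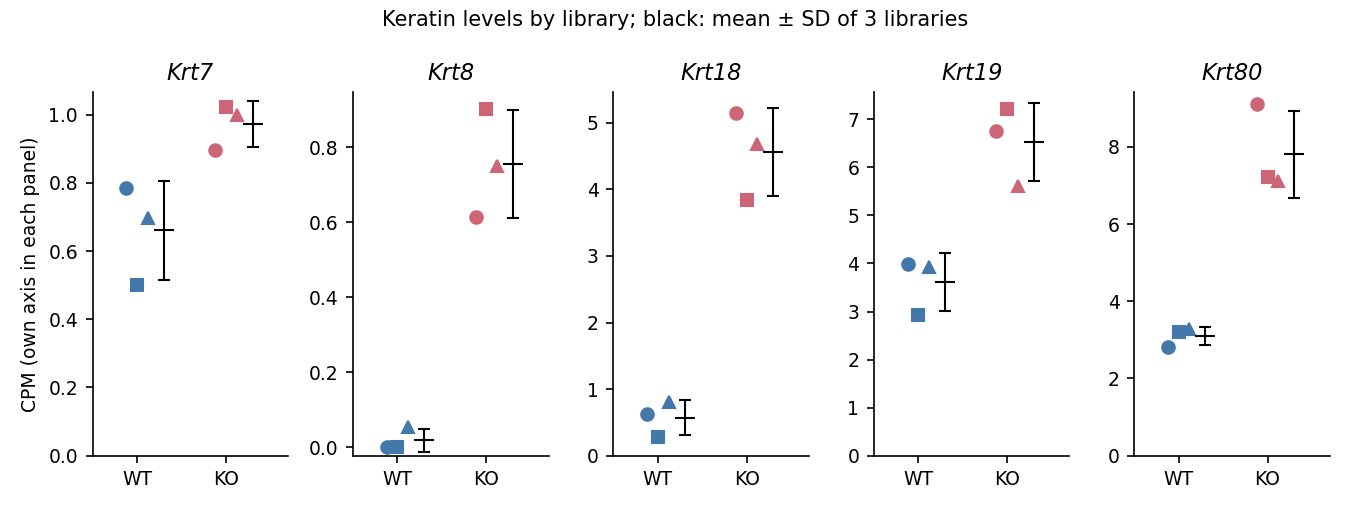
CPM (y axis, a separate axis for each panel) of Krt7, Krt8, Krt18, Krt19 and Krt80 in the 3 WT (blue) and 3 KO (red) libraries, with the mean ± SD of a genotype in black. In each panel the 3 KO points lie above the 3 WT points, and Krt7 and Krt8 stay near or below 1 CPM.

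Among the other 51 keratin genes and pseudogenes listed, 36 were at 0 in all libraries and 15 were tested, of which 2 had a mean of at least 1 CPM; 1 was called higher and 0 lower (edgeR and DESeq2 alike; 2 and 0 at an unadjusted p below 0.05), beside 4.97% and 4.03% of all genes. Without KO2, Krt8-ps was called as well. Krt80 (chromosome 15), a type II keratin of stratified epithelium, rose from 2.82, 3.21 and 3.27 CPM in WT1, WT2 and WT3 to 9.11, 7.21 and 7.12 CPM in KO1, KO2 and KO3. Its log2 fold change was 1.33 ± 0.20 (SE; adjusted p = 7.18e-10 by the quasi-likelihood test of edgeR, with p-values adjusted over all genes by the Benjamini-Hochberg method). Krt10, a keratin of differentiated epidermis, was at 3.08 ± 1.117 CPM in WT and 3.34 ± 1.04 CPM in KO (SD, n = 3 each) and was not called (adjusted p = 0.796, edgeR). None of the epidermal keratins Krt14, Krt75, Krt78 and Krt79 had more than 2 counts in any library.

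Vim (ENSMUSG00000026728, chromosome 2, from 13578738 to 13587637) was slightly lower in KO. Its values were 4423, 4044 and 4032 CPM in WT1, WT2 and WT3 and 3622, 3578 and 3745 CPM in KO1, KO2 and KO3, so that all KO libraries lay below all WT libraries and the KO mean was 87.6% of the WT mean. The log2 fold change was -0.19 (95% interval -0.30 to -0.08) and -0.15 without WT1, the highest of the WT libraries. Vim passed the threshold of an adjusted p below 0.05 in 9 of 12 fits, and not without KO1, without KO2, or among genes with reads in every library.

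Nes (ENSMUSG00000004891, chromosome 3, from 87878385 to 87887758) was at 142.6, 140.1 and 152.8 CPM in WT1, WT2 and WT3 and at 224.0, 209.1 and 230.7 CPM in KO1, KO2 and KO3. Its log2 fold change was 0.61 (95% interval 0.47 to 0.75), and the interval lay well away from 0. The 3 KO libraries were all above the 3 WT libraries. Per length, Nes stood at 2.58 ± 0.210% of Vim in WT and at 4.48 ± 0.141% in KO libraries (SD, n = 3 each), with no overlap. Synm (ENSMUSG00000030554, chromosome 7, from 67379908 to 67409490) was at 0.941, 2.99 and 2.68 CPM in WT1, WT2 and WT3 and at 6.04, 4.93 and 5.43 CPM in KO1, KO2 and KO3. The WT1 value was far below those of WT2 and WT3. Synm has a listed length of 7933 bases. In the length classes with medians of 6744 and 8490 bases, the median log2(CPM + 1) of WT1 lay only 0.07 and 0.12 below the other WT libraries. The part of gene length in the low WT1 value was not tested. The log2 fold change of Synm was 1.28 with a standard error of 0.23, and fell to 0.96 without WT1, below the 2-fold threshold. Synm overlaps Ttc23 on the other strand, which had from 167 to 285 counts, and without a stated strand setting reads of the overlap cannot be assigned to either gene with certainty.

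Of 12 other intermediate filament genes outside the keratins, 11 were tested, and 1 was called higher and 0 lower, beside 4.97% and 4.03% of all genes (0 and 0 with DESeq2, 2 and 2 at an unadjusted p below 0.05). Without WT3, Nefm was called lower. Sync, which encodes the vimentin-type partner syncoilin of muscle, rose from 1.96 ± 0.592 to 3.49 ± 0.358 CPM (log2 fold change 0.83, SE 0.27, adjusted p = 0.0259, edgeR). This call was lost with DESeq2 (adjusted p = 0.109), among genes with reads in every library and without WT1 (adjusted p = 0.0734, edgeR). It was also lost without WT3, KO2 or KO3 in turn. Iffo1 and Iffo2, with means from 18.5 to 68.1 CPM in a genotype, were not called. The muscle filament gene Des had at most 4 counts in any library, the glial gene Gfap at most 14, and the neuronal genes Nefl, Nefm, Nefh, Ina and Prph at most 16, and the mean of each lay below 1 CPM in both genotypes.

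Lmna (ENSMUSG00000028063, chromosome 3, from 88387454 to 88417263) was at 754.2, 704.5 and 757.8 CPM in WT1, WT2 and WT3 and at 698.2, 695.5 and 744.6 CPM in KO1, KO2 and KO3, and the genotypes overlapped (log2 fold change -0.05, 95% interval -0.18 to 0.07). Counts per gene do not part lamin A from lamin C. Lmnb1 (ENSMUSG00000024590, chromosome 18, from 56840885 to 56886496) was at 238.7, 213.4 and 223.7 CPM in WT and at 241.0, 245.3 and 241.5 CPM in KO, above WT in each library, with a log2 fold change of 0.11 (95% interval -0.03 to 0.24). It passed the threshold only without WT1, where the value was 0.15. Lmnb2 (ENSMUSG00000062075, chromosome 10, from 80737037 to 80754079) was at 72.3, 69.1 and 76.2 CPM in WT and at 88.0, 87.3 and 84.4 CPM in KO, with a log2 fold change of 0.26 (0.255; 95% interval 0.10 to 0.41). Its call was lost without WT2, without KO1 and without KO2. Per length, Lmna exceeded the sum of the B-type lamins 1.36 ± 0.0336 times in WT and 1.196 ± 0.0562 times in KO (SD, n = 3 each), and these ratios did not overlap between the genotypes.

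Read over the set, 6 of the 10 genes were higher in KO at an adjusted p below 0.05 (Krt8, Krt18, Krt19, Nes, Synm and Lmnb2), beside 4.97% of all genes tested, and 1 was lower (Vim), beside 4.03%. With a log2 fold change beyond 1 as well, the threshold by which the study defines a DEG, 3 were higher (Krt8, Krt18 and Synm), beside 1.75% of all genes, and 0 were lower, beside 0.665%. The 3 KO values all lay above the 3 WT values for 8 of the 10 genes, beside 11.6% of all genes, and all below them for 1, beside 10.1%. The median log2 fold change was 0.58 over the 10 genes and 0.01 over all genes tested. As the set was chosen for a difference in this comparison, nothing follows from these counts about intermediate filament genes as a class. Without WT1 the counts were 7 higher and 1 lower, and without KO1 or KO2 they were 5 higher and 0 lower.

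**Figure D4:**
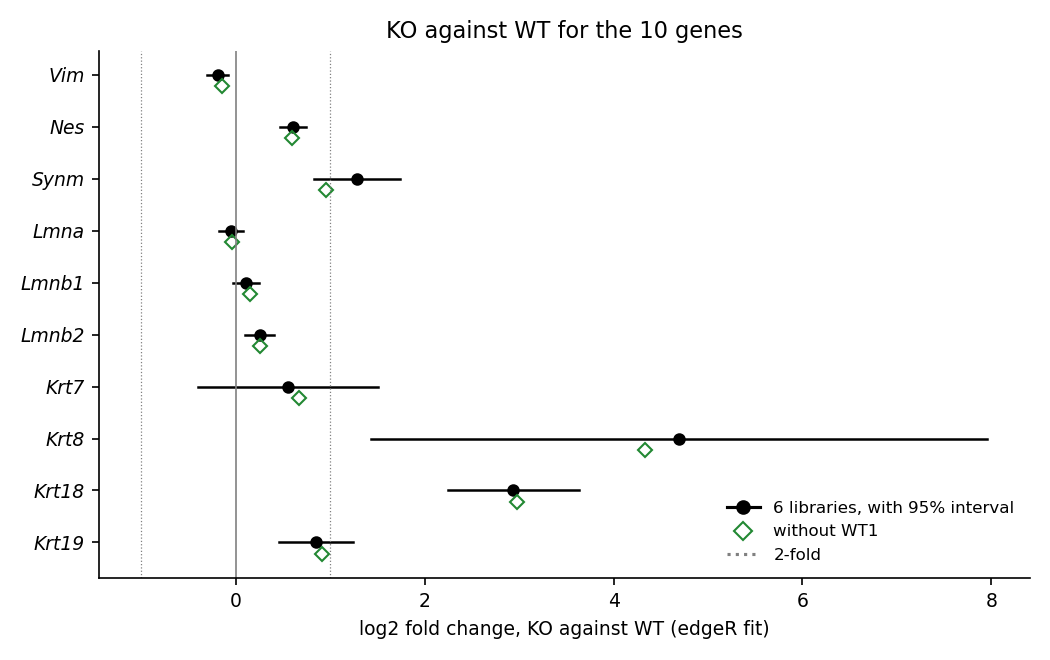
Fitted log2 fold change of KO against WT (x axis) for the 10 genes, with its 95% interval (black) and the value without WT1 (green diamonds); dotted lines mark a 2-fold change. Krt18 lies at 2.94 with an interval from 2.25 to 3.63 and Nes at 0.61 with one from 0.47 to 0.75, the lamins lie within 0.26 of 0, and the value of Krt8, with 1 count in WT, depends on the fitted prior and is shown with its wide interval.

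Genes that bind keratin filaments were followed in a list of 18 plakins and desmosome genes, of which 16 were tested, 4 rose and 0 fell at an adjusted p below 0.05 (edgeR; at an unadjusted p below 0.05, 7 were higher and 0 lower, and DESeq2 called 2 and 0), beside 4.97% and 4.03% of all genes tested. Dst, a long plakin gene that was not called with all libraries (log2 fold change -0.07), was called lower without WT1 (-0.28, adjusted p = 6.62e-12, edgeR). Perp, which encodes a tetraspan protein of desmosomes and is also a target of p53, rose from 1.10, 1.35 and 0.912 CPM in WT1, WT2 and WT3 to 6.56, 6.31 and 6.25 CPM in KO1, KO2 and KO3 (log2 fold change 2.52, SE 0.27, adjusted p = 9.03e-21, edgeR). Ppl, encoding periplakin, a linker that binds keratins and vimentin, rose from 2.43, 1.92 and 1.72 CPM to 8.97, 7.94 and 11.2 CPM (log2 fold change 2.22, SE 0.21, adjusted p = 6.46e-25, edgeR). The other 2 were Pkp3, below 1.3 CPM in every library and not called with DESeq2 (adjusted p = 0.0723) nor without KO1 or KO3, and Plec. Plec, encoding plectin, the linker of intermediate filaments to actin and adhesions, was called at a log2 fold change of 0.25 (adjusted p = 0.00101, edgeR). However, WT1, at 1113 CPM, read below WT2 and WT3 at 1493 and 1637 CPM, and the Plec fold change was 0.10 without WT1. The call was lost with DESeq2 (adjusted p = 0.102), with the filterByExpr filter of edgeR and among genes with reads in every library. The desmosome genes Dsp, Jup, Pkp2 and Pkp4 were expressed and not called, with log2 fold changes from -0.53 to 0.15, and Dsg2 and Dsc2, the desmosomal cadherins of simple epithelia, reached at most 23 counts; Dsc2 was called higher without WT1 (adjusted p = 0.0315, edgeR), without WT3 and with the replicate block. The median log2 fold change was 0.35 over the 16 tested genes of the list, beside 0.01 over all genes tested. Over the 12 with a mean of at least 1 CPM it was 0.20, beside -0.01 over all genes at that level.

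Of 18 partners of the nuclear lamina, all tested, 3 rose and 1 fell, beside 4.97% and 4.03% of all genes tested. All 18 had a mean of at least 1 CPM, and of the 13222 genes at that level 1201 were called higher and 1042 lower. The median log2 fold change of the 18 partners was 0.01. With DESeq2, with the filterByExpr filter and among genes with reads in every library, 1 was called higher, which was Sun2. Without WT1, 2 were called lower, the second being Tor1aip2 (-0.20, adjusted p = 0.000442, edgeR). Syne2, which encodes the giant linker nesprin-2 of the nuclear envelope, was called higher at 0.44 (adjusted p = 1.57e-08, edgeR); it is a very long gene, its value was 0.23 without WT1, and the call was lost with DESeq2 (adjusted p = 0.258). Sun2, encoding the inner membrane partner of nesprins, rose from 85.0 ± 6.16 to 103 ± 3.39 CPM (log2 fold change 0.28, adjusted p = 0.00527, edgeR), a call lost without KO1. Banf1, encoding the chromatin bridge BAF, was called higher at 0.27 (adjusted p = 0.00497), which was 0.15 and not called without WT2, and was also lost without KO3 and with DESeq2 (adjusted p = 0.0587). Tmpo, encoding the lamina-associated LAP2 proteins, was called lower at -0.20 (adjusted p = 0.0275), a call lost without WT2 and without each KO library in turn. Emd, Lbr, Lemd3 and Sun1 were not called. The 5 enzymes that farnesylate and trim prelamins (Fnta, Fntb, Rce1, Icmt and Zmpste24) gave 0 calls with edgeR and 0 with DESeq2, and at an unadjusted p below 0.05 Zmpste24 alone was lower (log2 fold change -0.17, adjusted p = 0.149). For 5 genes this lies near the 4.97% and 4.03% of all genes, and without WT1 Zmpste24 was called lower (-0.20, adjusted p = 0.00438, edgeR).

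AP-1 and Ets proteins are known activators of the Krt18 gene in other cells. Of 9 such genes, all tested, 5 rose and 1 fell, beside 4.97% and 4.03% of all genes tested. Without KO2, 2 of the 9 were called higher. All 9 had a mean of at least 1 CPM, and of the 13222 genes at that level 1201 were called higher and 1042 lower. Junb rose from 32.5 ± 0.590 to 59.8 ± 2.87 CPM (log2 fold change 0.88, SE 0.09, adjusted p = 8.23e-21, edgeR) and Fosl2 from 116 ± 11.1 to 174 ± 1.34 CPM (0.59, SE 0.07, adjusted p = 4.94e-14, edgeR). Jund rose by 0.36 (adjusted p = 0.00212), a call lost without KO2, and Ets2 by 0.24 (adjusted p = 0.0264), a call lost without WT2, WT3, KO1 or KO2 in turn. Fos, at 2.83 ± 0.129 and 4.54 ± 0.841 CPM, was called with all libraries (adjusted p = 0.0397, edgeR) but not with DESeq2 (adjusted p = 0.132) nor without WT2, WT3, KO2 or KO3. The call of Fos was also lost with the filterByExpr filter and among genes with reads in every library. Ets1 fell by 0.27 (adjusted p = 0.00253), a call lost without KO1. Jun lay at 93.2 CPM in both genotypes. The 6 regulators of the epithelial to mesenchymal transition, which repress epithelial genes, also had means of at least 1 CPM. Zeb1 rose (log2 fold change 0.46, adjusted p = 5.06e-07, edgeR) and Zeb2 fell (-0.37, adjusted p = 4.88e-05, edgeR), beside 4.97% and 4.03% of all genes. Snai2, Twist1 and Twist2 were not called, and Snai1 was called higher only without WT1 (0.24, adjusted p = 0.0429, edgeR), without WT2 and with the filterByExpr filter of edgeR.

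Markers of cell types in which these filaments are typical were followed in the same way. Of 18 epithelial markers 17 were tested and 0 were called by edgeR or DESeq2. Of all genes 4.97% were called higher and 4.03% lower, so that 0 of 17 lies near the background. Only 3 of the 17 had a mean of at least 1 CPM, so this 0 says little about the others. Without WT1, Cdh1 was called higher (adjusted p = 0.0357, edgeR), on few counts. With all libraries there were 1 higher and 0 lower at an unadjusted p below 0.05, and the WT libraries summed to between 10.1 and 12.6 CPM and the KO libraries to between 13.04 and 13.7 CPM. The defining genes Epcam and Cdh1 had at most 4 and 2 counts in a WT library and at most 11 and 10 in a KO library. The sum of 12 mesothelial markers moved with genotype, from between 9.98 and 11.6 CPM in WT to between 49.3 and 54.9 CPM in KO, of which Msln alone gave a mean of 44.9 CPM in KO. Of the 10 tested, 2 were called higher and 1 lower, beside the same shares of all genes. Msln, the surface protein mesothelin, rose from 2.88 ± 0.165 to 44.9 ± 3.001 CPM (log2 fold change 3.96, SE 0.15, adjusted p = 2.31e-185, edgeR). Podxl was also called higher, at under 2 CPM in every library (adjusted p = 0.0317, edgeR), a call lost with DESeq2 (adjusted p = 0.132), among genes with reads in every library and without WT3, KO1 or KO3 in turn. Bnc1 was called lower (log2 fold change -0.60, adjusted p = 0.0184, edgeR), a call lost in the same fits. Of the defining genes, Upk3b had at most 2 and Wt1 at most 7 counts, and Lrrn4 and Muc16 were at 0. The part of such cells in the keratin levels was not tested.

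Among 12 neural and neural crest markers, 9 tested, 2 rose and 1 fell, beside 4.97% and 4.03% of all genes tested; 2 were called lower with the replicate block and without WT3. Tubb3 rose (log2 fold change 0.67, adjusted p = 5.40e-09, edgeR), Sox2, a factor of neural progenitors, rose from 0.252 ± 0.152 to 1.67 ± 0.732 CPM (log2 fold change 2.65, adjusted p = 3.68e-06, edgeR) and Pax3 fell (-1.55, adjusted p = 5.91e-09), while Sox10 and Foxd3 were at 0. Of 11 muscle markers 8 were tested, of which 4 had a mean of at least 1 CPM. With edgeR 0 rose (0 also with DESeq2 and 0 at an unadjusted p below 0.05), which for 8 genes lies near the 4.97% of all genes. Acta2 (-0.41, adjusted p = 7.62e-10, edgeR) and Tnnt2 (-1.53, adjusted p = 1.14e-11, edgeR) fell, beside 4.03% of all genes. Of 10 fibroblast markers 3 rose and 2 fell, against the same shares of all genes. All 10 had a mean of at least 1 CPM, and of the 13222 genes at that level 1201 were called higher and 1042 lower. Thy1 fell from 394 ± 9.30 to 194 ± 5.99 CPM and Pdgfrb from 472 ± 36.5 to 282 ± 3.83 CPM. Col1a1, Col3a1 and Fn1 rose by 0.20, 0.29 and 0.29 on the log2 scale, with the call of Col1a1 lost among genes with reads in every library. Fn1, a long transcript, was at 0.12 without WT1. Its call was lost with DESeq2, with the filterByExpr filter and among genes with reads in every library. Col1a2 was called lower only without WT1 (-0.14, adjusted p = 4.34e-07, edgeR). Of 8 endothelial and blood markers 6 were tested, of which only 2 had a mean of at least 1 CPM. With edgeR, with DESeq2 and at an unadjusted p below 0.05, 0 were called, which lies near the 4.97% and 4.03% of all genes. Without WT2, Kdr was called higher (adjusted p = 0.0379, edgeR). The part of a changed mix of fibroblasts in the filament genes was not tested.

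**Figure D5:**
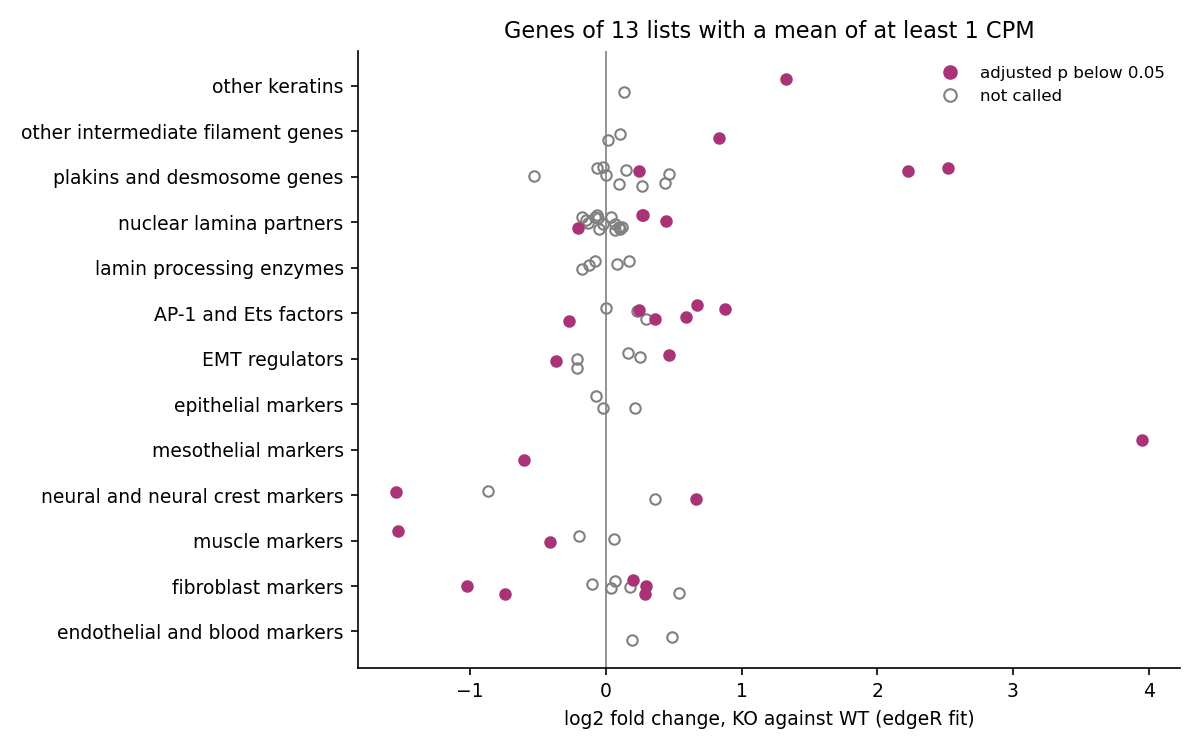
Fitted log2 fold change of KO against WT (x axis) of the genes with a mean of at least 1 CPM in 13 lists (rows), filled where the adjusted p was below 0.05. Perp and Ppl stand at 2.52 and 2.22 among the plakins and desmosome genes and Msln at 3.96 among the mesothelial markers, while the lamina partners and the lamin processing enzymes lie close to 0.

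The genes whose pattern over the 6 libraries was most like that of Krt18 were sought among 9105 protein-coding genes with a mean of at least 10 CPM, by the root mean square difference of log2(CPM + 1) after each gene was centred on its own mean. Pitx1, a homeobox factor of the hindlimb, was nearest at 0.0571, followed by Lrrc32 (0.163), Ltbp2 (0.169), Wnt10b (0.174) and Emb (0.175). Pitx1 lay at 7.47 ± 1.30 CPM in WT and 30.5 ± 3.01 CPM in KO. With 3 libraries a genotype this likeness mostly restates a similar step between KO and WT, and the pseudocount of 1 makes the step of a gene as low as Krt18 smaller on this scale.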

How the data were processed

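RNA of 3 WT and 3 KO MEF samples was sequenced as read pairs. Per the submitters' processing notes and the methods, the authors aligned reads with HISAT2 2.0.5 and counted them per gene with featureCounts 1.5.0-p3. The authors deposited raw counts per gene and FPKM (scaled to gene length and library reads). The notes name GRCm38, but 0 of the 10 genes lie at their GRCm38 positions, and coordinates are taken as GRCm39, by the Ensembl release that the methods name.

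A gene entered the fit if any library had an FPKM over 0, which 26898 did, and their counts were tested with edgeR 4.0.16 in R 4.3.3 (TMM, quasi-likelihood, no covariates, Benjamini-Hochberg). A gene was called at an adjusted p below 0.05, and a DEG also had an absolute log2 fold change above 1. The prior degrees of freedom were infinite, so p-values are too low for any gene whose own spread exceeds the trend. The fit was tested on simulated data. Intervals use the standard error of the fit, so they are too narrow where a gene's own spread exceeds the trend. The alternatives were DESeq2 1.42.0, RLE scaling, stricter filters, the replicate block, each library left out, and log2(FPKM + 1) or log2(FPKM + 0.1). The 10 genes, 13 lists and rules were chosen with earlier results of these data known. Of each list, genes called with a mean of at least 1 CPM were named, at most 4 in each direction; Sox2, Podxl, Pkp3, Ets2, Dst and uncalled genes were named after their values were seen.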

Additional observations from a re-analysis of the deposited data

How the results depend on the processing

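The direction of KO against WT held for each of the 10 genes in all fits. Krt8 could not be fitted among genes with reads in every library. The genes of the set called lower numbered 1, but 0 among genes with reads in every library, and between 0 and 1 with a library left out; those called higher numbered 6, and between 5 and 7 with a library left out. The genes of the 13 lists called higher numbered 22, but 14 with DESeq2 and 14 among genes with reads in every library. All genes called lower numbered 1083, and between 650 (without KO3) and 1624 (without WT1) with a library left out. With the replicate number as a block 1330 genes were called higher and 1035 lower, against 1337 and 1083 without it; 6 and 1 of the set were called with and without the block. Same-numbered WT and KO libraries had correlations of their deviations of -0.0255, -0.0133 and 0.0479, and unlike-numbered ones from -0.0387 to 0.0416. The numbers thus showed no shared shift. This cannot tell whether the samples were paired when they were made. Dst, not called with all libraries, had log2 fold changes from -0.28 (without WT1) to 0.05 (without WT3, 0.0519; without WT2, 0.0483) with a library left out, so its direction turned. The log2(FPKM + 1) scale shrank the differences of the low genes, to 1.58 for Krt18, 0.45 for Krt8 and 0.41 for Synm. The cause of these moves was not tested, beyond the fewer libraries, fewer genes or larger pseudocount that each setting brings. Krt7, Krt8, Krt18 and Synm, each with under 20 counts in at least 1 WT library, are limited by depth.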
